A study of Rattus norvegicus with 36 samples.

Results

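Hepatic cholesterol genes were examined in rat liver, over 8 listed genes that carry out or restrain cholesterol synthesis or export sterols into bile: Hmgcs1, Fdps, Fdft1, Sqle, Cyp51, Insig1, Abcg5 and Abcg8. The members were chosen by name: every probe of the deposited intensity file whose target name is a listed gene, in any case and under its current symbol or an older synonym. Of the 8 genes, 7 had 1 probe each among the 22523 probes of the file, and Insig1, which holds the sterol sensor of the cell in the endoplasmic reticulum, had none under that name and was not analysed here. None of the 8 is a receptor for lipoprotein uptake, so uptake is covered by the wider list further on. The study measured liver RNA of 36 male Wistar rats on Illumina BeadChips. Rats were vitamin A deficient (VAD) or vitamin A sufficient (VAS) before the operation, had their bile duct ligated (BDL, which blocks bile flow to the gut) or underwent a sham operation, and were then given daily intraperitoneal retinyl palmitate (VITA), a storage form of vitamin A, or vehicle. There were 5 rats per group with BDL and 4 per sham group, over 4 groups of each kind. The labels call the rats of a group biological replicates. No age, dose or time is given in the sources used.

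Cholesterol is built from acetyl units along a chain of enzymes that is switched on together when sterols in the endoplasmic reticulum run low, through the SREBP transcription factors, and is held back by the Insig proteins when sterols are plentiful. The liver disposes of cholesterol by turning it into bile acids and by pumping it into bile. The pump for sterols is a dimer of Abcg5 and Abcg8, whose genes lie head to head and are known targets of the oxysterol receptor LXR.

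Arrays had 29.2% to 38.1% of their probes detected at a detection p under 0.01, and arrays of the same group correlated at 0.965 to 0.990. The 36 arrays lay on 3 slides of 12, each with an unequal part of the groups. Values are log2 intensities after background correction and quantile normalization, and a difference of 1 is a doubling of signal. A linear model of 8 group means (limma, 28 residual degrees of freedom) was fitted to 9314 genes. A gene is said to rise or fall where its two-sided p, adjusted by Benjamini and Hochberg over those genes, was under 0.05. Intervals are 95% intervals. Hepatocyte markers such as Alb, Ttr and Cps1 were detected on 36 of 36 arrays. The tissue was measured in bulk, so fewer cells of a type and less RNA per cell cannot be told apart.

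Of the 7 genes with a probe, 6 passed the filter of detection on at least 4 arrays. Hmgcs1, Fdps, Fdft1, Sqle and Cyp51 were detected on 36 of 36 arrays. Abcg5 was detected on 20 of 36. Abcg8 was detected on 0 of 36, with log2 values of 4.36 to 5.10 that lay at the level of background, so it was not tested and no change in it could have been seen.

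Abcg5, one side of the sterol pump, was the member that moved most. It was lower in BDL than in sham livers on both diets and with either injection. Retinyl palmitate went with a lower Abcg5 level in VAD sham livers. In VAS vehicle rats the sham levels were 8.80, 8.37, 9.05 and 7.57. After BDL the 5 VAS vehicle rats read 4.81, 5.17, 4.58, 4.73 and 4.40. The groups did not overlap, and Abcg5 was above background in 4 of 4 sham and 0 of 5 BDL livers. The fall was therefore a bound, at least 7.88-fold (means 8.45 ± 0.65, SD, n = 4, and 4.74 ± 0.29, SD, n = 5, a measured log2 difference of -3.71, SE 0.43, limma adjusted p = 1.6e-07). A bound sets the mean of the bright group against the lowest signal that counted as detected on each array of the dim group. In the authors' value table the same difference was -1.23 and still passed. In that comparison Abcg5 was the 1 of 6 tested members to pass, while 17.4% of all genes passed.

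In VAD vehicle rats Abcg5 read 8.87, 10.04, 10.60 and 9.55 after sham and 5.97, 6.04, 4.86, 7.13 and 6.15 after BDL. Every BDL liver lay below every sham liver, and 4 of the 5 BDL livers stayed above background. The log2 difference was -3.74 (SE 0.43, interval -4.61 to -2.86, limma adjusted p = 1.7e-08), a 13.3-fold fall. Within the slides that held both groups it was -3.49 on slide 1 and -3.44 on slide 3. In the authors' value table it was -1.91 and passed. The diet by operation term, the BDL difference on the VAD diet minus that on the VAS diet, was -0.02 for Abcg5 (interval -1.27 to 1.22, adjusted p = 0.99), with VAS BDL livers at background.

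The Abcg5 and Abcg8 promoters are shown through the Abcg5 window because it serves both genes and holds the export gene that moved. RefSeq (GRCr8) gives the window of 250 bases before to 50 bases after the Abcg5 start at chr6:15717686-15717985 on the plus strand. The Abcg8 start lies 206 bases away on the other strand, and 295 of the 300 bases of the windows of Abcg5 and Abcg8 are the same. Capitals mark the NF-Y box, CCAAT or its complement, searched on both strands.
Abcg5 promoter: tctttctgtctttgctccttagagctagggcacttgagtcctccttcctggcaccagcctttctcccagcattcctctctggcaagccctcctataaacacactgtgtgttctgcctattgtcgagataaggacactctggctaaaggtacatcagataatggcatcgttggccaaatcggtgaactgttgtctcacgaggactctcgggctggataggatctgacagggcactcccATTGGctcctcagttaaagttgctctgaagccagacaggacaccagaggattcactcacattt
The window holds 1 NF-Y box, 13 bases before the Abcg5 start and 197 before the Abcg8 start. The box is found in 37.5% of 33469 rat promoter windows of the same length. The core of the sterol element, TCACNCCAC, is not among these letters on either strand (1.12% of windows hold it), nor is AGGTCA, a motif bound by nuclear receptors (16.2% of windows). The search took exact matches only, so variants of these motifs were not looked for.

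The injection also went with Abcg5 in the absence of cholestasis, on the VAD diet. VAD sham vehicle livers averaged 9.77 ± 0.74 (SD, n = 4), the highest of the 8 groups, and VAS sham vehicle livers 8.45 ± 0.65 (SD, n = 4). That diet difference of 1.32 (interval 0.39 to 2.24) did not pass over all genes (limma adjusted p = 0.19), and the ranges overlapped. With retinyl palmitate, the VAD sham rats read 7.45, 5.88, 6.80 and 8.64, all below the 8.87 of the lowest vehicle rat. Abcg5 fell by 2.57 on the log2 scale (SE 0.46, interval -3.50 to -1.65, limma adjusted p = 0.001), 5.96-fold, where 1.3% of all genes passed. It was 1 of 6 members to do so. The call was lost in a fit of those 2 groups alone (adjusted p = 0.087). Within slides the difference was -2.01 on slide 1 and -1.43 on slide 3.

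In VAS sham rats given retinyl palmitate Abcg5 read 6.86, 6.73, 5.51 and 6.92, again all below the vehicle rats, of which the lowest read 7.57. The difference of -1.94 (interval -2.87 to -1.02) did not pass (limma adjusted p = 0.26), in a comparison where 0.0215% of all genes passed. With both diets averaged, a comparison chosen after the values were seen, the injection went with a log2 difference of -2.26 in sham livers (SE 0.32, interval -2.91 to -1.60, limma adjusted p = 5.8e-05), while 1.02% of genes passed. No other member passed there. The test of whether the injection effect depended on diet in sham livers gave -0.63 for Abcg5 (interval -1.94 to 0.68, adjusted p = 1), and 0.215% of genes passed.

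Among BDL livers Abcg5 stood higher in VAD than in VAS vehicle rats. All 5 VAS livers were below background, so the rise was at least 1.47-fold (measured difference 1.29, SE 0.41, limma adjusted p = 0.016). The ranges overlapped, because the VAD rat at 4.86 lay under the highest VAS rat at 5.17. Without the VAD rat at 7.13 the difference was 1.02 and did not pass (adjusted p = 0.07), and it did not pass in the authors' value table either (0.26, adjusted p = 0.32). Over 18 alternatives 15 kept this call. BDL rats given retinyl palmitate read 4.94, 5.22, 5.03, 5.20 and 6.52 on the VAD diet and 4.46, 4.59, 4.61, 4.79 and 5.29 on the VAS diet. Abcg5 was detected in 1 of those 10 rats. Against sham rats with the same injection, Abcg5 was lower on the VAD diet, with means of 5.38 and 7.19 and 1 of 5 BDL livers above background, so that the size of the fall was not well measured (limma adjusted p = 0.0019), and at least 2.01-fold lower on the VAS diet (measured -1.76, SE 0.43, limma adjusted p = 0.0026). The VAS call was lost in the authors' value table (-0.37, adjusted p = 0.16).

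**Figure D1:**
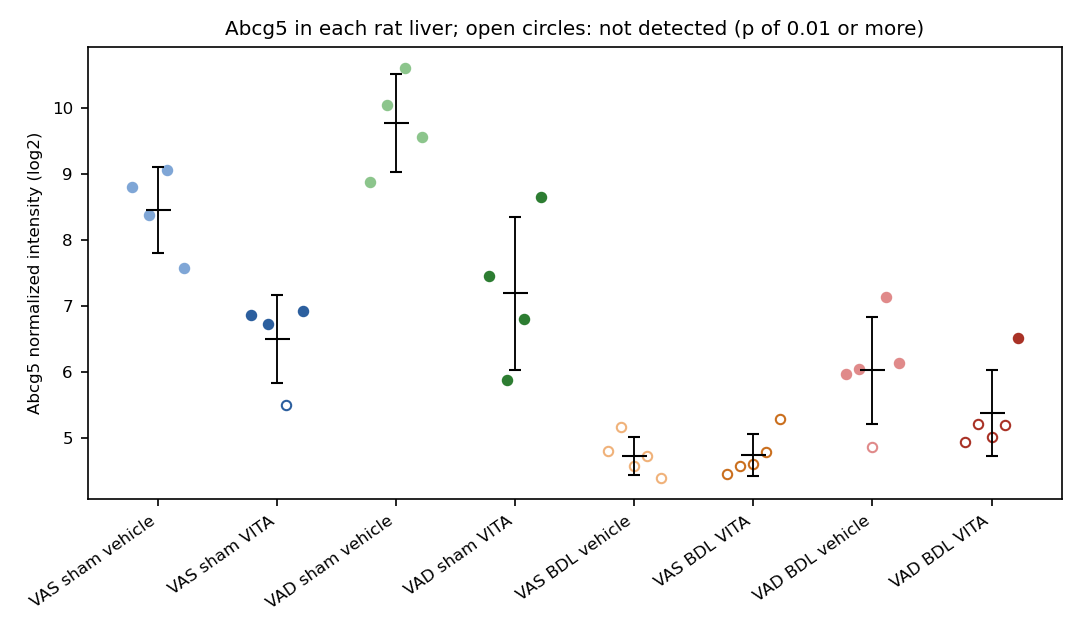
Abcg5 log2 normalized intensity (vertical axis) in each of the 36 livers, by group (horizontal axis), with the mean and SD of each group as bars; open circles are livers where the probe was not above background. The sham vehicle groups lie highest, the sham VITA groups between, and the VAS BDL groups at background with 0 of 5 rats detected in each.

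In VAD vehicle rats 3 of the 5 enzymes, Fdps, Fdft1 and Cyp51, were lower after BDL, and Hmgcs1 and Sqle were not. With Abcg5 that made 4 of 6 members lower, in a comparison where 40.5% of all genes passed, 51.4% of these being higher in BDL livers (75.8% with median scaling). In VAS vehicle rats 0 of the 5 enzymes passed (0 also at an unadjusted p under 0.05), where 17.4% of all genes passed. Fdps and Fdft1 differed there by -0.42 (interval -0.98 to 0.14) and -0.29 (interval -0.79 to 0.20). Hmgcs1, Sqle and Cyp51 differed by 0.29, 0.48 and 0.16.

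Fdft1, squalene synthase, takes the first step committed to sterols. It read 9.51, 9.91, 9.70 and 9.59 in VAD sham vehicle livers and 7.93, 8.68, 8.45, 8.36 and 8.92 after BDL. The groups did not overlap. Fdft1 fell by 1.21 on the log2 scale (SE 0.24, interval -1.70 to -0.72, limma adjusted p = 0.00013), 2.31-fold. The difference was -1.78 on slide 1 and -1.01 on slide 3.

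Cyp51, the lanosterol demethylase of the later sterol steps, read 8.17, 8.48, 7.15 and 8.23 after sham and 6.41, 7.28, 7.51, 6.31 and 6.56 after BDL in the same groups. A sham rat at 7.15 lay among the BDL rats. Cyp51 fell by 1.19 on the log2 scale (SE 0.32, interval -1.85 to -0.54, limma adjusted p = 0.0033), 2.29-fold. Its probe was dim, with a mean raw intensity of 304.65 after sham and 235.3 after BDL, so the size of the fall depends on the processing. Over 17 alternatives the difference ran from -1.48 to -0.51, and 16 kept the call. With arrays scaled to a common median in place of quantile normalization the difference was -0.74 and did not pass (adjusted p = 0.066). That scaling moved the median of all genes in this comparison to 0.23, so relative to it Cyp51 still lay lower.

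Fdps makes farnesyl diphosphate, the branch point to sterols, ubiquinone and prenylated proteins. It read 12.16, 12.44, 11.29 and 12.45 after sham and 10.46, 11.46, 11.61, 10.92 and 11.23 after BDL. The lowest sham rat lay inside the BDL range. Fdps fell by 0.95 on the log2 scale (SE 0.28, interval -1.51 to -0.38, limma adjusted p = 0.0063), 1.93-fold. It was -1.84 on slide 1 and -0.79 on slide 3.

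Hmgcs1, which makes hydroxymethylglutaryl-CoA at the head of the pathway, and Sqle, squalene epoxidase, passed in none of the 12 comparisons between groups. In VAD vehicle rats the BDL difference of Hmgcs1 was 0.02 (interval -0.67 to 0.70), at -0.81 on slide 1 and 0.15 on slide 3. That of Sqle was 0.47 (interval -0.27 to 1.22). Hmgcs1 levels ran from 11.84 to 14.07 over all livers, and neighbouring groups in the order of its means overlapped throughout.

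The promoters of Hmgcs1 and Fdps are shown because the second gene fell in VAD BDL vehicle livers and the first did not pass there. Both windows are RefSeq (GRCr8), 250 bases before to 50 after the start, with NF-Y boxes in capitals. That of Hmgcs1 lies at chr2:53382054-53382353 on the plus strand and that of Fdps at chr2:176804767-176805066 on the minus strand. The Hmgcs1 gene record begins upstream of its window, at 53379457, so the Hmgcs1 distances refer to a start inside the record.
Hmgcs1 promoter: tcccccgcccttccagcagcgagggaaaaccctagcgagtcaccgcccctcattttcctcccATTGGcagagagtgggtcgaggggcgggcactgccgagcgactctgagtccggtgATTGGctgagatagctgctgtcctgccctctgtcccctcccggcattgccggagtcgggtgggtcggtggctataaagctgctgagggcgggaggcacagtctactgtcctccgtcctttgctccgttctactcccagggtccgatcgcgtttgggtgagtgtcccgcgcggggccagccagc
Fdps promoter: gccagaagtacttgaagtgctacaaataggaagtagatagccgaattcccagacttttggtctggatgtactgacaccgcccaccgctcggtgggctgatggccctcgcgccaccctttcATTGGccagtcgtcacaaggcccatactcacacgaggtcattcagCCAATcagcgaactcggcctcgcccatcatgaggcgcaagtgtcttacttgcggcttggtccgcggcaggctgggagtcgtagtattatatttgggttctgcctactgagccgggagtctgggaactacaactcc
Each holds 2 NF-Y boxes, 188 and 133 bases before the start in Hmgcs1 and 130 and 85 before it in Fdps. Fdps also has the nuclear receptor motif AGGTCA, 96 bases before its start. Neither has TCACNCCAC. Of the 8 members, 6 matched a promoter entry; Sqle and Fdft1 did not, and Cyp51 held none of the motifs.

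**Figure D2:**
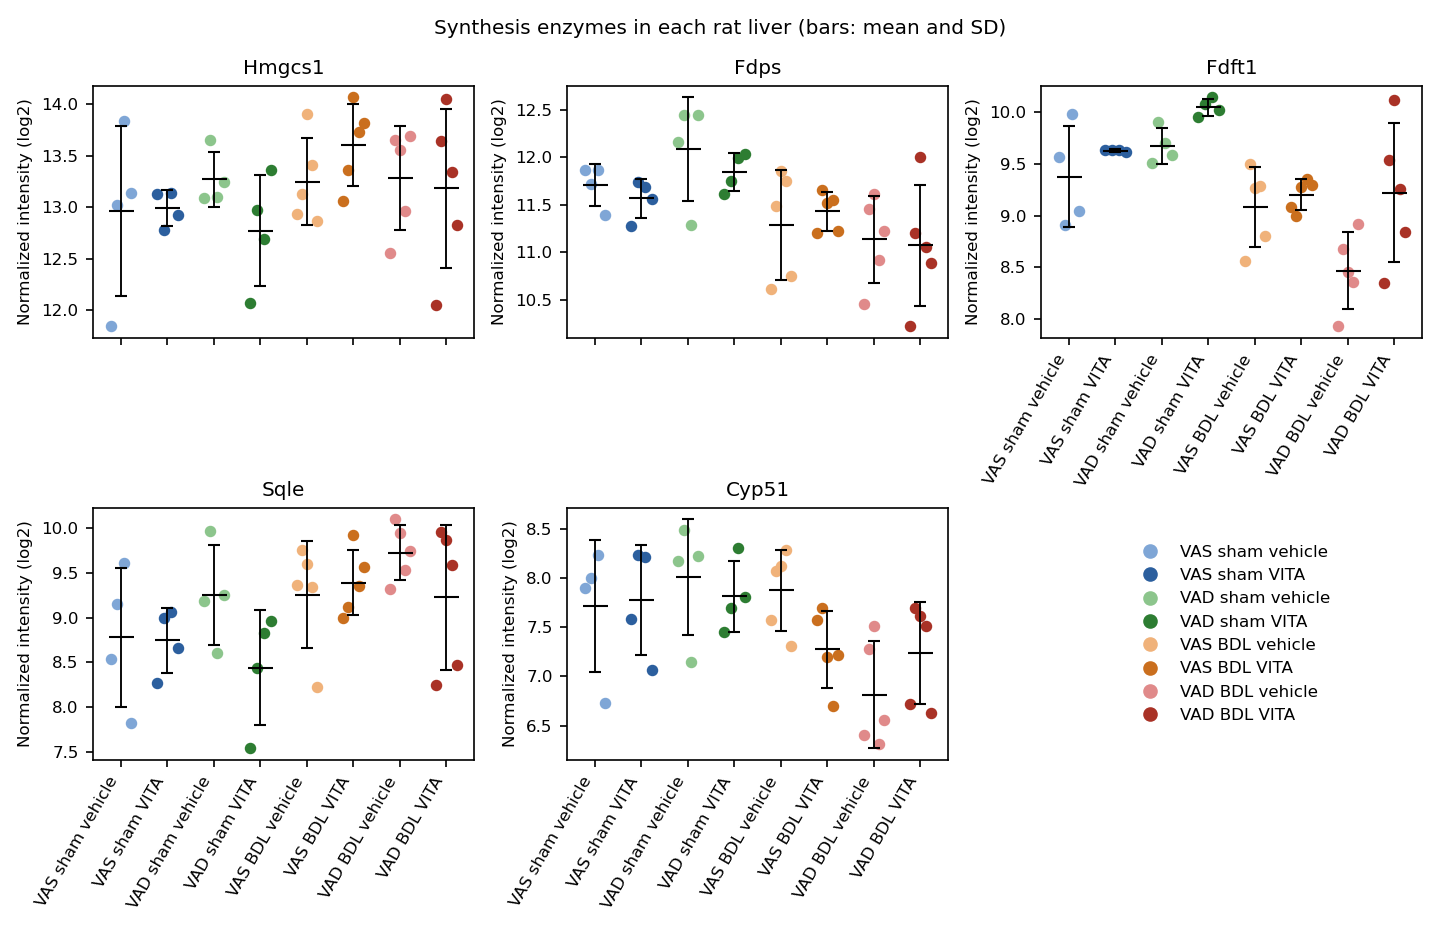
Log2 normalized intensity (vertical axes, 1 panel per gene, each with its own scale) of the 5 synthesis enzymes in each liver, by group, with mean and SD. Fdft1, Fdps and Cyp51 have lower means in VAD BDL vehicle than in VAD sham vehicle livers. The Fdft1 points of those groups do not overlap and those of Fdps and Cyp51 do. The share of all genes without overlap was not computed.

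The diet comparison among BDL livers used the same 5 VAD vehicle rats, so its values share them with those above. Cyp51 was lower in VAD than in VAS rats, whose 5 livers read 7.58, 8.07, 8.13, 8.28 and 7.31. The difference was -1.06 (SE 0.30, interval -1.68 to -0.44, limma adjusted p = 0.0081), and it lay at -1.42, -0.81 and -0.87 on slides 1, 2 and 3. Over 18 alternatives it ran from -1.23 to -0.43, and 18 kept the call. Fdft1 was lower by a smaller margin, with VAS livers at 8.56, 9.50, 9.27, 9.29 and 8.80 (a log2 difference of -0.62, SE 0.23, limma adjusted p = 0.042). Its call was lost when any of 6 of the 10 rats was left out (VAD vehicle replicates 1, 3 and 4, VAS vehicle replicates 2, 3 and 4), with adjusted p up to 0.15 and differences of -0.75 to -0.48. Over 18 alternatives, these fits and the other processing settings together, 9 kept the Fdft1 call. Of the 6 members 2 were lower and 1, Abcg5, higher, while 26.4% of all genes passed. Fdps, Sqle and Hmgcs1 differed by -0.15, 0.47 and 0.04 and did not pass.

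Whether the BDL change depended on diet was tested directly. The term was -1.35 for Cyp51 (SE 0.46, interval -2.28 to -0.42, limma adjusted p = 0.064) and -0.92 for Fdft1 (SE 0.34, interval -1.61 to -0.22, adjusted p = 0.099). Neither passed, and 7.92% of genes did. For Fdps the term was -0.53 (interval -1.32 to 0.27, limma adjusted p = 0.49), for Hmgcs1 -0.27 and for Sqle -0.003, and none of these passed. With slide as a block, Cyp51 reached -1.46 (adjusted p = 0.0023) and Fdft1 -0.99 (adjusted p = 0.045). Both genes also passed without VAS sham vehicle replicate 3 (adjusted p = 0.044 and 0.04).

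Retinyl palmitate in VAD BDL rats went with a higher level of 1 member. Fdft1 read 8.35, 9.54, 10.12, 9.26 and 8.84 with the injection, against the 8.47 ± 0.37 (SD, n = 5) of vehicle rats. The rise was 0.75 (SE 0.23, interval 0.29 to 1.22, limma adjusted p = 0.018), 1.69-fold, where 17% of all genes passed. The lowest injected rat lay within the vehicle range. The call was lost without VITA replicate 2 (0.68, adjusted p = 0.052), VITA replicate 3 (0.53, adjusted p = 0.099) or vehicle replicate 1 (0.62, adjusted p = 0.079). It was also lost with median scaling (adjusted p = 0.082) and in a fit of those 2 groups alone (adjusted p = 0.13). Cyp51 differed by 0.42 (interval -0.20 to 1.04) and Fdps by -0.06 (interval -0.59 to 0.47), and neither passed.

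In VAD rats given retinyl palmitate, BDL again went with lower Fdft1 and Fdps, while Cyp51 (-0.58, interval -1.24 to 0.08) did not pass. Fdft1 fell by 0.83 on the log2 scale (SE 0.24, limma adjusted p = 0.01) and Fdps by 0.77 (SE 0.28, adjusted p = 0.038). With Abcg5, 3 of 6 members were lower, and 24.3% of all genes passed. The Fdps call was lost in 6 of 9 fits that left out 1 rat (VITA BDL replicates 1, 4 and 5 and VITA sham replicates 2, 3 and 4), with adjusted p up to 0.15. That of Fdft1 was lost without VITA BDL replicate 1 (-0.61, adjusted p = 0.053). Over 17 alternatives, these fits and the other processing settings together, 9 kept the Fdps call and 15 the Fdft1 call. VAD sham rats with the injection had the highest group mean of Fdft1, with rats at 9.96, 10.08, 10.15 and 10.02, above every rat of the group next in order of means; 1 VAD BDL rat with the injection reached 10.12. On the VAS diet with the injection 1 of 6 members, Abcg5, passed against 25.3% of all genes.

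**Figure D3:**
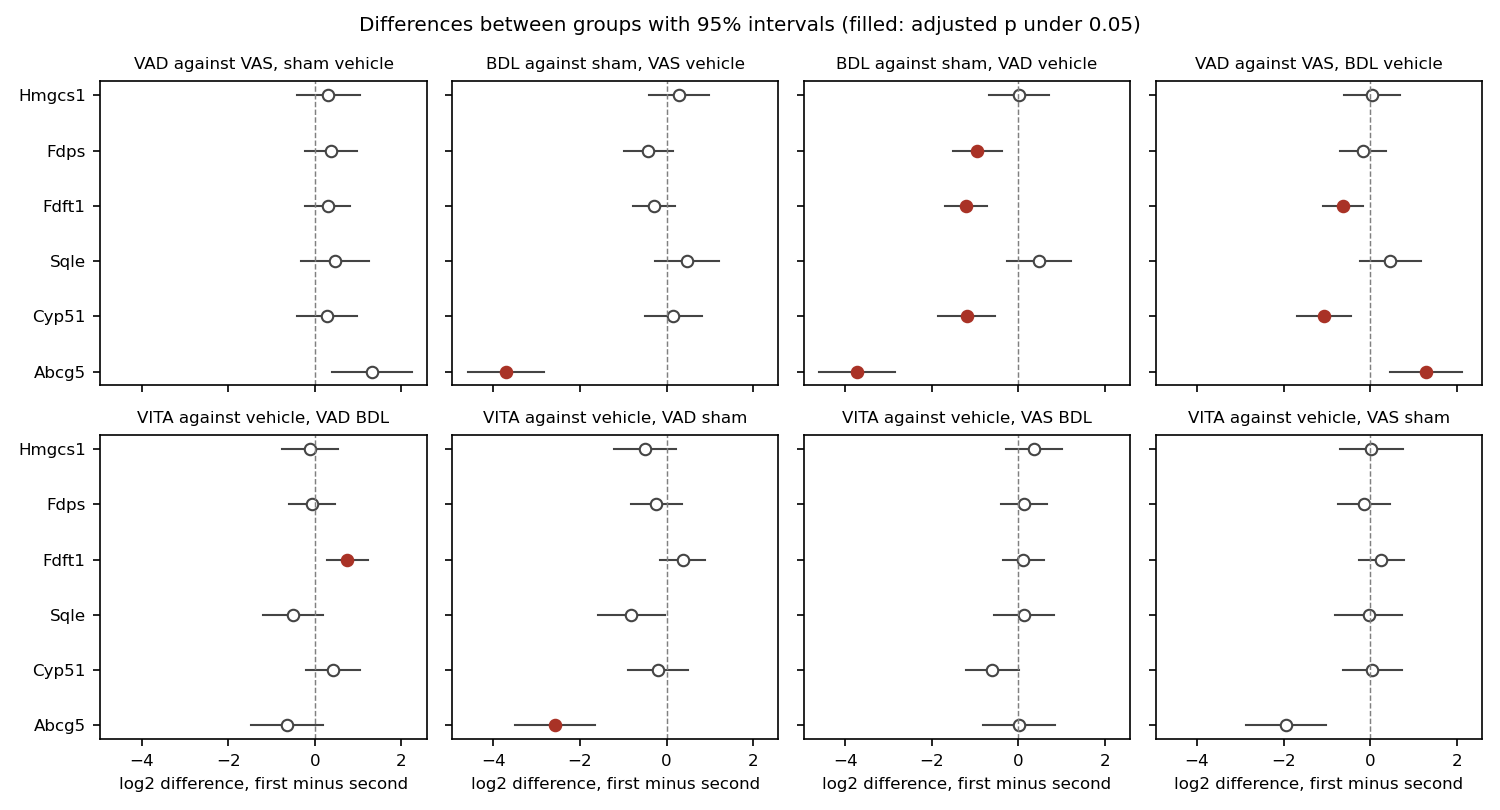
Log2 differences (horizontal axes, first named group minus second) of the 6 tested members with 95% intervals, in 8 comparisons; filled points had an adjusted p under 0.05. Abcg5 lies furthest to the left after BDL on either diet, at -3.71 and -3.74, and in VAD BDL vehicle livers Fdps, Fdft1 and Cyp51 lie left of 0 while Sqle and Hmgcs1 do not.

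Sqle and Cyp51, which act within the same stretch of the pathway, parted in the VAD BDL vehicle livers. The pair was chosen after the values were seen and is described without a test. Cyp51 had a dim probe, and its pairing with Sqle is given under the main normalization only. The levels of different probes have no common scale, so the difference between their log2 values in a rat is read only for how it moves between groups. It was 1.25 ± 0.26 (SD, n = 4) in VAD sham vehicle and 2.91 ± 0.32 (SD, n = 5) in VAD BDL vehicle livers, with ranges of 1.01 to 1.49 and 2.44 to 3.22. VAS BDL vehicle livers lay at 1.38 ± 0.38 (SD, n = 5, range 0.91 to 1.79) and VAS sham vehicle livers at 1.06 ± 0.31 (SD, n = 4). VAD BDL rats with retinyl palmitate lay between, at 1.99 ± 0.31 (SD, n = 5, range 1.52 to 2.27). VAS BDL rats with the injection lay at 2.11 ± 0.64 (SD, n = 5) and spread from 1.42 to 2.72, which reaches into the range of the VAD BDL vehicle rats. Every VAD BDL vehicle rat lay above every rat of the other vehicle groups, and on slides 1 and 3, which held both groups, the gap to VAD sham vehicle rats was 1.66 and 1.95.

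**Figure D4:**
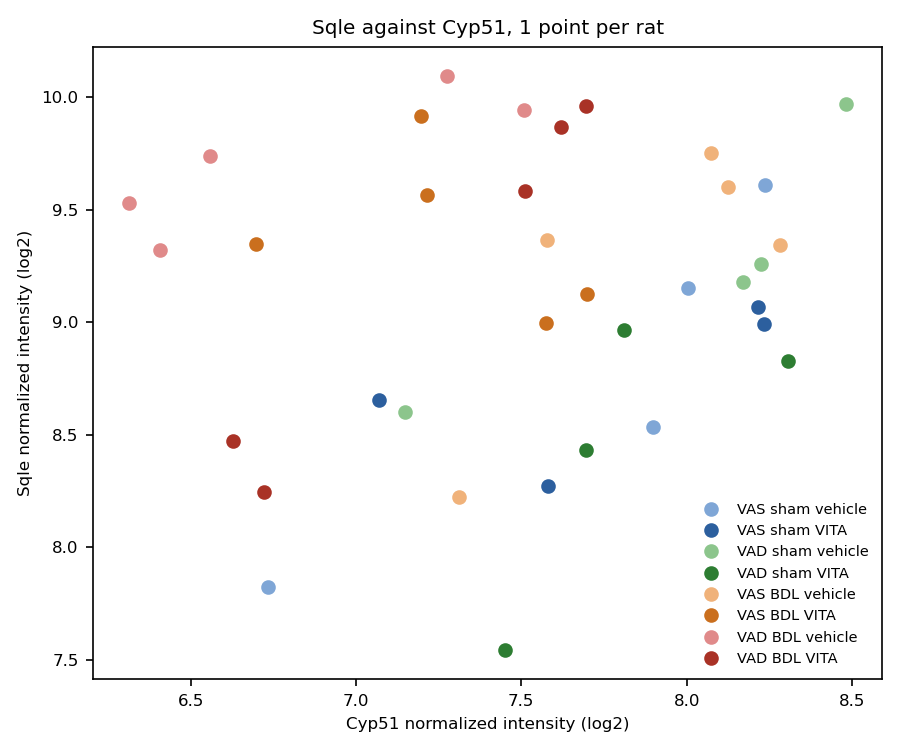
Sqle against Cyp51 log2 normalized intensity, 1 point per liver, coloured by group. The VAD BDL vehicle livers have Cyp51 at 6.31 to 7.51 and Sqle at 9.32 to 10.10; sham livers reach into each of these ranges, but no vehicle sham liver has a gap between the 2 genes as wide as the 2.44 of the lowest VAD BDL vehicle liver.

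After each group's mean was removed, 9 of the 10 pairs among the 5 enzymes correlated over the 36 livers, at an adjusted p under 0.05 over the 15 pairs computed (permutation within groups, two-sided). Sqle and Cyp51 had the highest Pearson r, 0.73 (permutation p = 2e-05, adjusted p = 0.00015), with Spearman's rho 0.71 (permutation p = 5e-05, adjusted p = 0.00025). Without the 2 farthest livers r was 0.70. Leaving out 2 livers in the same way ended the call for Fdft1 with Cyp51 (r 0.45 to 0.41, permutation adjusted p = 0.076). Hmgcs1 with Cyp51 had the lowest, r = 0.37 (permutation p = 0.063, adjusted p = 0.095), and passed by Spearman's rho, 0.41 (permutation p = 0.027, adjusted p = 0.04), and without the 2 farthest livers (r = 0.39, permutation adjusted p = 0.04). Abcg5 correlated with none of the 5, with r between -0.25 and 0.10. Within group and slide together the enzyme pairs kept r of 0.43 to 0.83, but 1 of 10 pairs passed, Sqle with Cyp51 (permutation adjusted p = 0.046). A group had 0 to 3 rats on a slide, so few rearrangements were possible.

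The genes most like the enzymes were ranked by Pearson r over the 36 livers with the mean centred level of the 5, among 8092 genes. They were Acat2 (r = 0.84), which joins acetyl units, Mvd (0.84), the mevalonate diphosphate decarboxylase, Msmo1 (0.71), the methylsterol monooxygenase, Idi1 (0.69), the isopentenyl diphosphate isomerase, and Hsd17b7 (0.64), a sterol ketoreductase. All 5 of these are on the wider pathway list. The r of Abcg5 with the same mean was 0.18.

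The wider list of pathway genes, other than the members, had 39 genes tested. Among 14 further synthesis genes, BDL on the VAD diet went with 6 lower (median -0.50, against -0.04 over all genes tested). The lower ones included Tm7sf2, a sterol reductase, at -1.54 (SE 0.29, limma adjusted p = 4.9e-05), and Ebp, the sterol isomerase, at -0.94 (SE 0.15, adjusted p = 3.1e-06).

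Among 10 tested regulators, 2 were lower after BDL on the VAS diet and 3 on the VAD diet, beside 17.4% and 40.5% of all genes called in these comparisons, so the counts of this group and of those that follow are read as descriptions of single genes. Insig2, the relative of Insig1 that also retains SREBP, fell by 1.32 on the VAS diet (SE 0.28, a log2 difference of -1.32, limma adjusted p = 0.00079) and by 1.13 on the VAD diet (SE 0.28, adjusted p = 0.0014). Stard4, a carrier of cholesterol inside the cell, fell by 0.93 and by 0.82 (adjusted p = 0.003 and 0.0035). Srebf1, which encodes SREBP-1, fell by 1.33 on the VAD diet (SE 0.37, adjusted p = 0.0042).

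Of 7 uptake and trafficking genes, 2 rose and 1 fell after BDL on the VAD diet. Npc2, which hands on cholesterol in lysosomes, rose by 1.04 (SE 0.11, limma adjusted p = 1.4e-09). Vldlr, a lipoprotein receptor and the other gene counted as rising, averaged 5.58 after BDL and 4.59 after sham. It was below background in 4 of 4 sham livers and is given no fold. It passed the detection filter only through VAD BDL livers, chiefly the vehicle group where it is high, so no p is given for it. Npc2 was lower with retinyl palmitate in VAD BDL rats, by -0.51 (adjusted p = 0.00033). Vldlr averaged lower there too, above background in 1 of 5 injected livers and in 4 of 5 livers of the vehicle group through which it passed the filter.

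Of 5 further export genes, 3 rose and 1 fell after BDL on the VAD diet, and 2 rose and 1 fell on the VAS diet. Abcg1, which moves cholesterol to lipoprotein particles, rose after BDL, where Abcg5 fell. It averaged 7.04 ± 0.12 (SD, n = 4) in VAS sham vehicle, 8.05 ± 0.13 (SD, n = 5) in VAS BDL vehicle, 7.90 ± 0.23 (SD, n = 4) in VAD sham vehicle and 9.70 ± 0.19 (SD, n = 5) in VAD BDL vehicle livers. Its rise after BDL was 1.80 on the VAD diet (SE 0.16, limma adjusted p = 6.8e-11) and 1.00 on the VAS diet (SE 0.16, adjusted p = 1.9e-05), and the difference between the diets, 0.79, passed (SE 0.22, adjusted p = 0.022). Retinyl palmitate in VAD BDL rats went with a fall of Abcg1 by 1.51 (SE 0.15, adjusted p = 8.9e-09), to 8.19 ± 0.24 (SD, n = 5). In sham livers Abcg1 was higher on the VAD than on the VAS diet with vehicle, by 0.86 (SE 0.17, adjusted p = 0.003), and lower with the injection on the VAD diet, by -0.70 (SE 0.17, adjusted p = 0.022). Abcb4, the phospholipid floppase of the bile canaliculus, fell with the injection in VAD sham rats, as Abcg5 did, by 1.73 on the log2 scale (SE 0.31, adjusted p = 0.0012). Pltp, the phospholipid transfer protein, rose after BDL by 0.78 and 0.79 on the VAS and VAD diets (adjusted p = 0.00012 and 2.7e-05).

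Of 3 tested esterification genes, 2 fell after BDL on the VAD diet. Soat2, the sterol acyltransferase of hepatocytes, fell by 1.35 (SE 0.21, limma adjusted p = 3.5e-06). Ces1d, a carboxylesterase, fell by 3.62 (SE 0.60, adjusted p = 9.9e-06), 12.3-fold. Nceh1, a cholesteryl ester hydrolase, was at least 1.76-fold higher in VAD than in VAS BDL vehicle livers (limma adjusted p = 0.0073), with 0 of 5 VAS livers above background.

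Markers of other liver cells moved in the comparisons in which the enzymes fell and Abcg1 rose. They also moved after BDL in VAS rats, where no enzyme passed. There 13 of 39 markers were higher and 1 lower with vehicle, beside 17.4% of all genes called. With the injection 18 were higher and 2 lower, beside 25.3%. In VAD vehicle rats BDL went with a rise in 5 of 6 cholangiocyte, 7 of 8 macrophage, 8 of 9 stellate and fibroblast, 3 of 3 neutrophil and 1 of 2 endothelial markers tested. The share of all genes that passed there was 40.5%. The summed linear signal of the macrophage list was 3100 to 4975 in VAD sham vehicle and 16354 to 26235 in VAD BDL vehicle livers. That of the stellate and fibroblast list was 1693 to 2444 and 13374 to 23770. The hepatocyte list had 2 of 11 genes lower, with sums of 232868 to 246317 and 202186 to 251781, which overlap. Cftr and Sox9 among cholangiocyte markers and S100a9 among neutrophil markers were not detected on any array. In VAD BDL rats retinyl palmitate went with a fall in 8 of 9 stellate and fibroblast and 6 of 8 macrophage markers, where 17% of all genes passed. Of the other lists, 2 of 6 cholangiocyte, 1 of 3 neutrophil, 1 of 2 endothelial and 0 of 11 hepatocyte markers were lower. In sham livers, where Abcg5 was lower with the injection on the VAD diet, 0 of the 39 markers of these 6 lists passed (limma, 3 at an unadjusted p under 0.05). Of all genes 1.3% passed there, so a count of 0 says little about these markers. The part of these cell types in the enzyme differences was not tested.

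The remaining comparisons held no called member. These were diet in sham vehicle livers (1.11% of genes called, with Abcg5 at an unadjusted p under 0.05), diet in injected sham livers (0%, 342 genes at an unadjusted p under 0.05) and diet in injected BDL livers (0.0322%). They also included the injection in VAS BDL livers (0%, 473 genes at an unadjusted p under 0.05). In these last 3, 0 of 6 members had an unadjusted p under 0.05. Cyp51 averaged 7.28 ± 0.39 (SD, n = 5) with the injection and 7.87 ± 0.41 (SD, n = 5) without it in VAS BDL livers, a difference of -0.60 (interval -1.22 to 0.02, limma adjusted p = 0.87). The term for injection by operation on the VAD diet passed for 2.72% of genes and was 1.93 for Abcg5 (SE 0.61, interval 0.68 to 3.17, limma adjusted p = 0.082). That for injection by diet in BDL livers passed for 13.4% of genes and for 0 of 6 members (1, Cyp51, at an unadjusted p under 0.05).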

How the data were processed

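Liver RNA of 36 rats was labelled as biotinylated cRNA and hybridised to Illumina BeadChips, per the labels' protocols. The authors deposited a bead intensity per probe and array on a linear scale, with a detection p-value beside it, per the file headers. The deposited value table holds normalized intensity; its scaling and centring stay unknown, its column medians are 211.951 to 212.040 and it ranks the probes of each array as the raw intensities do (Spearman 1). The signal over background of an array stands for its depth: median raw intensity was 108.2 to 145.3.

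With R 4.3.3 and limma 3.58.1, intensities were background corrected and quantile normalized on the log2 scale (neqc, offset 16, negative controls inferred from the detection p). The filter, detection at p under 0.01 on 4 arrays or more, left 9545 probes; of several probes of a gene the brightest on average was taken, giving 9314 genes. Probe names were matched to a RefSeq table, 74.7% of them. Figures were drawn with Python 3.11.15, pandas 2.3.3 and matplotlib 3.10.9. The model had 8 group means and 15 contrasts, checked on simulated data. No array was left out, and 0 arrays were identical. Same-numbered rats of compared groups were checked for shared deviations: their correlations ran from -0.19 to 0.41, and 0 of 12 comparisons had all pairs over 0.1, so the numbers were not taken as pairs.

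Named genes were all members, per comparison up to 4 called pathway genes with the largest difference, and the 6 genes most like the enzymes; 3 genes that this rule named are not reported here. The members and lists were chosen with earlier results of these data known. The alternatives were normexp with offset 50, median scaling, the deposited value table, no filter, a filter of 18 arrays, slide or replicate number as a block, the compared groups alone, and each array left out. Averaging the diets in sham rats and the difference of Sqle and Cyp51 were added after seeing the data.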

Additional observations from a re-analysis of the deposited data

Results flagged for a closer look

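In 3 of 48 sets of a gene in a group, 1 rat stood apart from the others by Dixon's test at the 95% level, which chance does in about 1 of 20 sets. Sqle in VAS BDL vehicle rats had a low value of 8.22 in replicate 5, against 9.34 to 9.75 in the other 4. Abcg5 in VAD BDL rats with retinyl palmitate had a high value of 6.52 in replicate 5, against 4.94 to 5.22, and this was the 1 liver of that group with Abcg5 above background. Abcg5 in VAS sham rats with retinyl palmitate had a low value of 5.51 in replicate 3, against 6.73 to 6.92, and this was the 1 liver of that group with Abcg5 below background.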

How the results depend on the processing

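Where a member was called, it kept its sign under each of these alternatives. Leaving out 1 array at a time gave 984 values for members, of which 957 kept their side of the threshold, 17 lost it and 10 gained it. Abcg5 after BDL on the VAS diet was -1.23 in the authors' value table. The changes in counts of called members (main count in brackets) that follow are not a full list. They leave out, among others, 2 calls lost with no filter and 1 lost with normexp. In the authors' value table they were 0 (1) for BDL in injected VAS rats, 1 (3) for diet in BDL vehicle rats, 1 (0, Abcg5, 0.94) for diet in sham vehicle rats and 1 (0, Abcg5, adjusted p = 0.0023) for injection by operation, which normexp also gave as 1 (Abcg5, adjusted p = 0.012). With median scaling the injection in VAD BDL rats gave 0 (1). In fits of the compared groups alone there were 1 (3) for BDL in injected VAD rats, 3 (1, with Hmgcs1 and Fdft1) for BDL in injected VAS rats, 0 (1) for the injection in VAD BDL rats and 0 (1) in VAD sham rats. With slide as a block the diet by operation term gave 2 (0). The injection averaged over sham rats of both diets, which is not a test of VAS rats alone, gave 1 against 0 in VAS sham rats. Pair correlations within group and slide numbered 1 (9). The replicate block, in which rats share only a number, gave 1 (0, Cyp51, adjusted p = 0.029) for diet by operation. It also added Sqle in injected VAD rats after BDL (0.88, adjusted p = 0.031). With arrays left out the counts ran from 1 to 3 for diet in BDL vehicle rats (1 without VAD vehicle replicate 4), 0 to 1 for the injection in VAD BDL rats, 0 to 1 for injection by operation (1 without VAD BDL vehicle replicate 4, VAD sham VITA replicate 4 or VAD sham vehicle replicate 1), 2 to 3 for BDL in injected VAD rats and 0 to 2 for diet by operation (2 without VAS sham vehicle replicate 3). The cause of these changes was not tested. Counts over all genes moved by over 1.5 times for diet in sham vehicle rats (103; 59 with median scaling, 41 alone), the injection in VAD sham rats (121; 39 alone), the injection in VAD BDL rats (1582; 1014 alone), the injection in VAS sham rats (2; 0 to 1), diet in injected BDL rats (3; 0 to 13 over the settings), diet by operation (738; 489 with median scaling) and injection by operation (253; 402 in the authors' value table, 460 with slide, 110 alone). Under median scaling the all-gene median shifted by up to 0.23. A probe at background, as Abcg8 throughout, limits what could be seen.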
